A study of Mus musculus with 80 samples.

Results

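Sox10, Prx, Pmp22 and S100b are 4 genes of Schwann cells and their myelin, and they were chosen by symbol as the Schwann cell genes to follow among the 10842 genes of a spatial expression table from mouse tibialis anterior muscle. It comes from NanoString's GeoMx platform (mouse whole transcriptome probes): light cuts a barcode off each probe bound inside an outlined area, and the barcodes are counted. It holds 80 regions from 12 animals, and each region is labelled as nerve bundle (18 regions), normal fibres (20), surrounding artery (20) or central nuclei (22), the last being fibres whose nuclei lie inside the cell and not at its edge. The tau animals (6 animals, 39 regions) expressed P301L tau, a form of the microtubule-binding protein tau with a disease mutation, and the controls (6 animals, 41 regions) did not. All 12 animals carry the genotype label WT and the strain label C57Bl/6, and no source used here gives their ages. The name of the deposited data also includes AAV8, a viral vector. The treatment labels read control and tauopathy and do not say whether controls received a vector. Tau and its delivery therefore cannot be told apart from these labels. Every region, nerve bundles included, has the cell type label Myofibers.

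Schwann cells are the glia of peripheral nerve. Those that myelinate wrap an axon in a spiral of compacted membrane, which contains the membrane protein encoded by Pmp22, whose dosage is altered in inherited neuropathies. Sox10 is the transcription factor that specifies the lineage and, with the zinc finger factor encoded by Egr2, drives the myelin genes. Prx encodes periaxin, a scaffold that links the myelinating cell's outer membrane to its cytoskeleton, and S100b encodes a calcium-binding protein widely used as a stain for Schwann cells. Skeletal muscle holds myelinated motor and sensory axons in small nerve bundles, and non-myelinating terminal Schwann cells sit at the neuromuscular junctions.

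Library depth ran between 145488 and 3356106 counts a region, with a median of 1253326. The negative probe, which matches no gene and so measures the assay's background, had normalised values between 17.2 and 53.2. Regions lay on 3 slides, each with 2 tau and 2 control animals, and the negative probe averaged 25.8 ± 5.24 over the 27 regions of slide 1 (SD), 46.1 ± 2.99 over the 25 of slide 2 and 34.8 ± 5.16 over the 28 of slide 3. The labelled sex is female in 4 tau and 3 control animals and male in 2 tau and 3 control animals. The Y-linked gene Ddx3y averaged above 1.5 times the negative probe in 3 of the 7 animals labelled female and below it in 4 of the 5 labelled male, so sex was not used in the main fits. Mapt, the gene of tau itself, stood at 1.25 to 2.57 times the negative probe in tau animals and 1.49 to 3.18 times in controls, and it does not separate the groups. Whether the assay's mouse probe reads the P301L transcript is stated in no source used here.

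The genes lie on 4 chromosomes in the RefSeq annotation of GRCm38 (mm10): Sox10 at chr15:79154913-79164490, Prx at chr7:27499305-27520041, Pmp22 at chr11:63128982-63159547 and S100b at chr10:76253836-76261319. The stretch just upstream of the first annotated start is shown for 3 of them, Pmp22, Prx and S100b. The source used holds no upstream sequence for Sox10. Sequences are from RefSeq (GRCm38.p6), 5′ to 3′ on the plus strand, with the CCAAT box (the letters CCAAT, or ATTGG where it is on the minus strand) in capitals.
Pmp22 chr11:63128732-63128981 (+): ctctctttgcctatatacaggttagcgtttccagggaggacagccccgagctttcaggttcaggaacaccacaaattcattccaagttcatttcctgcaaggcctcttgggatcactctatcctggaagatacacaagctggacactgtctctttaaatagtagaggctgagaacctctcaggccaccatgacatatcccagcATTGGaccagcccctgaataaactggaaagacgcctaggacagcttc
Prx chr7:27499074-27499304 (+): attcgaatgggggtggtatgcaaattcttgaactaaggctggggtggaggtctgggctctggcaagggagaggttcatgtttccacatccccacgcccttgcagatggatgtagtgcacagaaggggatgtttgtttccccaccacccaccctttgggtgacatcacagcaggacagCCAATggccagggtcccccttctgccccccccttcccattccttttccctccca
S100b chr10:76253586-76253835 (+): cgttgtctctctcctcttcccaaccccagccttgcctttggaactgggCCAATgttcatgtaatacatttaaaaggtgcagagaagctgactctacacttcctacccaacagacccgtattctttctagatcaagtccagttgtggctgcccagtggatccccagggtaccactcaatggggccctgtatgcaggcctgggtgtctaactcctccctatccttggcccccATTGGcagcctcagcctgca
One CCAAT box lies 47 bases before the end of the Pmp22 window and one lies 54 bases before the end of the Prx window. The S100b window holds 2, at 202 and 20 bases before its end. Of all 32851 upstream windows of 250 bases in the table, 33.8% hold these letters on either strand. The letters ACAAAG and ACAATG, both core forms of the SOX motif, and GCGTGGGCG, the EGR motif, were searched on both strands and are not in these 3 windows, against 16.5%, 10.7% and 0.536% of all windows. A match is a description of the letters and not a site. Pmp22 has 4 annotated windows, of which the first is printed.

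The members cleared the background to very different degrees. S100b and Prx were at least 1.5 times the negative probe in 80 of 80 regions, and Pmp22 was in 53 of 80. Sox10 was in 6 of 80 and above the negative probe at all in 42 of 80, so 3 of the 4 members passed the filter on low values, and Sox10 is described from the same fit over all genes. Its reading in most regions cannot be told apart from background, which is not a statement that the transcript is absent. Sox10 counts in a nerve bundle region ran from 3 to 178.

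S100b and Prx also moved with the background from region to region. Over the 80 regions, the log2 value correlated with that of the negative probe at Pearson's r = 0.90 for S100b, 0.86 for Prx, 0.58 for Sox10 and 0.37 for Pmp22, where the median over the 10188 tested genes was 0.33. For S100b, 99.2% of the tested genes had a lower r, for Prx 96.6%, and for Pmp22 51.7%. Within slides 1, 2 and 3 the r of S100b was 0.80, 0.82 and 0.89, and that of Prx was 0.60, 0.61 and 0.87. That of Sox10 was 0.25, 0.64 and 0.68, and that of Pmp22 was -0.084, 0.20 and 0.12. The medians over all genes tested were 0.12, 0.18 and 0.29 on the same slides. These regions share slides, animals and one normalisation, and the values are given as a description. Divided by the negative probe, S100b kept within 1.98 to 4.83 times background in all regions and Prx within 1.53 to 3.42 times, while Pmp22 ran between 0.949 and 7.53 times.

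**Figure D1:**
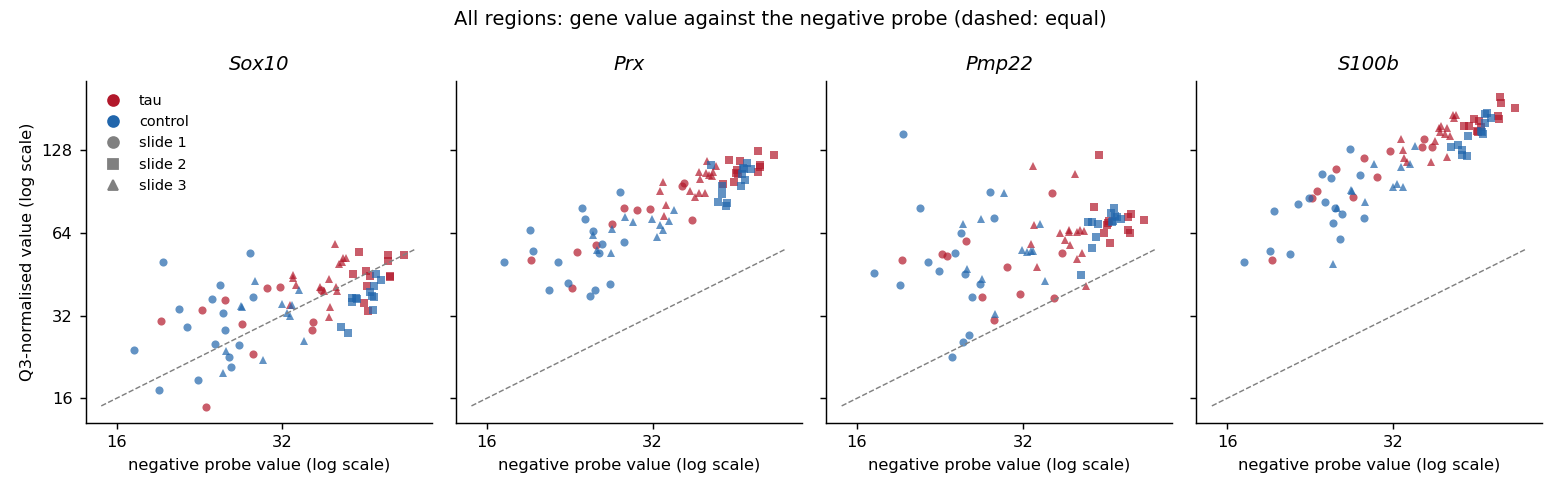
Value of each gene (vertical axis, Q3-normalised value, log scale) against the negative probe value of the same region (horizontal axis, log scale), 80 regions, coloured by treatment with slides as marker shapes; the dashed line marks equal values. S100b and Prx run parallel to the line and above it, Sox10 lies across it, and Pmp22 has a cloud near it with a few regions far above.

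Pmp22 was the member that stood out in nerve bundles, without passing the test. Its animal means (each the geometric mean over an animal's regions of a type) in nerve bundles had a lowest, median and highest Q3-normalised value of 47.5, 69.8 and 123 (n = 12 animals). In normal fibres they were 32.0, 49.3 and 71.6, in surrounding artery 44.5, 59.1 and 73.8, and in central nuclei 37.2, 62.8 and 77.0 (n = 11). The highest nerve bundle animals lie beyond every other type, and the lowest lie well within them, so the types overlap. On the log2 scale of the value plus 1, nerve bundle averaged 6.19 ± 0.41, surrounding artery 5.93 ± 0.24, central nuclei 5.91 ± 0.35 and normal fibres 5.65 ± 0.36 (SD between animals).

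**Figure D2:**
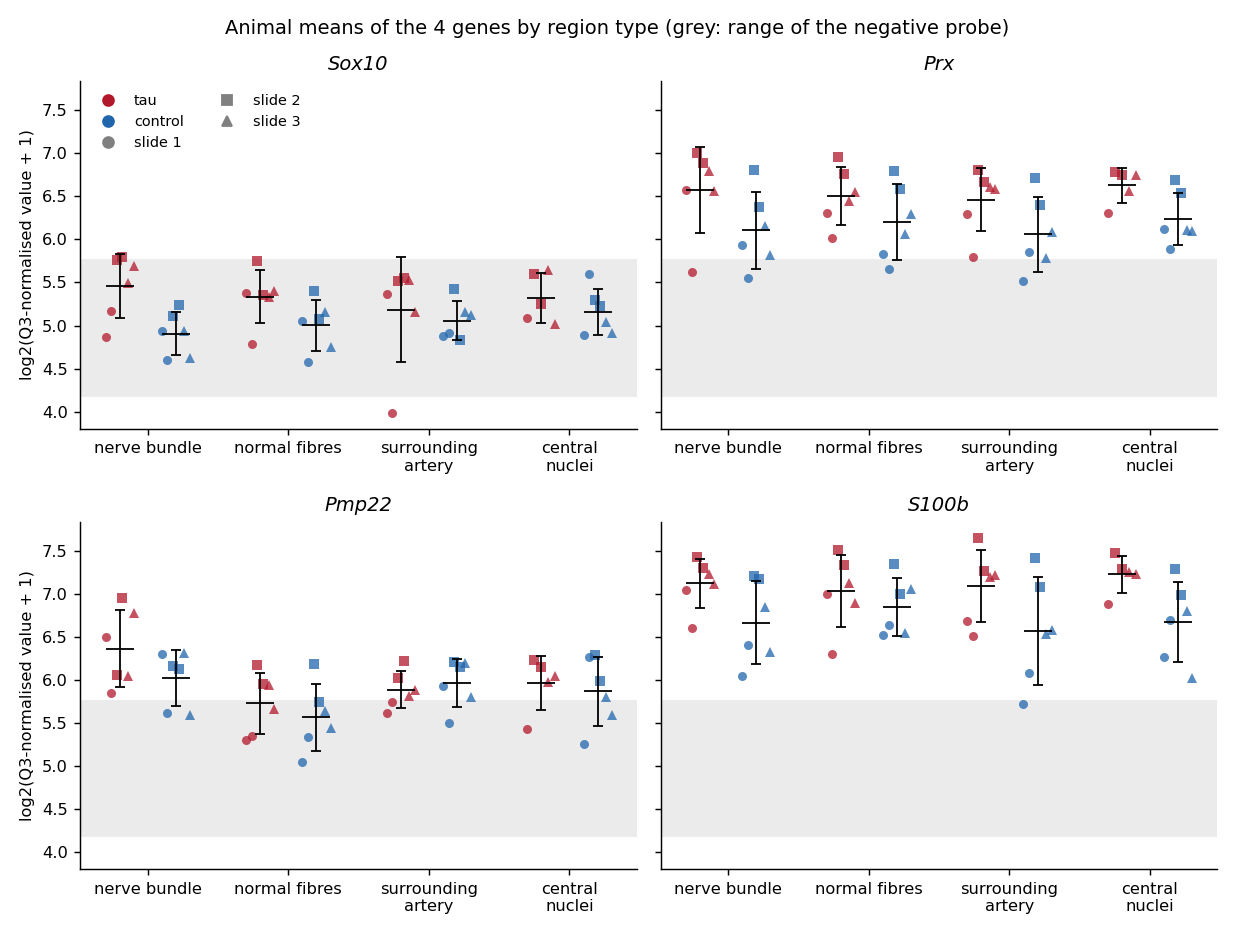
Animal means of log2(value + 1) for the 4 genes in each region type, tau (red, left) and control (blue, right), with slides as marker shapes; the black line and bar are the mean and SD, and the grey band is the range of the negative probe over regions. Pmp22 nerve bundle means reach above the other types, Prx and S100b lie at one height across types, and Sox10 lies within the background band in most animals.

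Within an animal, Pmp22 in nerve bundle exceeded the mean of the other region types by 0.37 ± 0.11 log2 units (SE, n = 12 animals), above 0 in 8 of 12. The unadjusted p was 0.0029 and the limma p with Benjamini-Hochberg adjustment over all 10188 tested genes was 0.925. None of the 4 members was called (adjusted p under 0.05) in this comparison, and 0% of all genes tested were, with 326 genes at an unadjusted p under 0.05. Against normal fibres the difference was 0.54 ± 0.12 (above 0 in 10 of 12, unadjusted p 0.00028, adjusted p 0.563), against surrounding artery 0.27 ± 0.098 (9 of 12, adjusted p 0.990) and against central nuclei 0.31 ± 0.14 (7 of 11, adjusted p 0.812). The share called among all genes tested was 0.00982% against normal fibres and 0% against both of the others, with 577, 382 and 526 genes at an unadjusted p under 0.05. A difference above 0 was found in 47.8% of all genes tested against normal fibres, 45.1% against surrounding artery and 44.7% against central nuclei. The single call against normal fibres was Dcn, which encodes the collagen-binding proteoglycan decorin of connective tissue sheaths, at 0.61 ± 0.089 (adjusted p = 0.0167, 12 of 12 animals). That call was lost when C2, C16, C40, T14, T20 or T30 was left out, with adjusted p between 0.0552 and 0.0874.

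The Pmp22 difference was uneven between animals. It was 1.05 in T13, 0.91 in T20, 0.85 in T7, 0.30 in T30, 0.13 in T15 and -0.083 in T14 among tau animals, and 0.89 in C2, 0.44 in C16, 0.17 in C40, -0.018 in C20, -0.065 in C3 and -0.081 in C30 among controls. The 3 highest tau animals and 1 control lie well apart from the rest, which are at 0.44 or less, with both treatments on either side. By slide the mean difference was 0.54, 0.22 and 0.37 on slides 1, 2 and 3. Outside the nerve bundles, Pmp22 was lowest in normal fibres: surrounding artery exceeded them by 0.28 ± 0.079 (10 of 12 animals, adjusted p = 0.0976) and central nuclei by 0.24 ± 0.076 (11 of 11, adjusted p = 0.998). The share of genes called was 0.353% for artery against normal fibres and 0% for central nuclei against normal fibres, where 289 genes had an unadjusted p under 0.05, and 52.4% and 54.5% of all genes tested lay above 0. The artery difference passed after division by the negative probe (0.35, adjusted p 0.0469) and without T15 (0.32, adjusted p 0.0444). Surrounding artery minus central nuclei was 0.030 ± 0.096 (adjusted p 0.939), with 0% of genes called and 725 at an unadjusted p under 0.05. As background, Pmp22 is also transcribed in fibroblasts and other cells outside nerve.

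Single nerve bundle regions differed widely in Pmp22, also within an animal. Among tau animals, Pmp22 was 123 in the region of T7, 112 and 105 in the regions of T20, and 89.6 in the region of T13. In the regions of T15, T30 and T14 it was between 53.6 and 65.7. Among controls, one region of C2 had Pmp22 at 146, where the other region of the same animal had 41.3. The regions of C16 had 89.4 and 69.2, and the 5 regions of C20, C30, C3 and C40 lay between 46.5 and 70.5. High and low regions thus occur in both treatments, and the widest gap is between the regions of C2. Over the 18 nerve bundle regions the log2 value of Pmp22 correlated with that of Sox10 at r = 0.65, S100b at 0.44, Prx at 0.42 and Apod, the gene of the lipid-binding apolipoprotein D made by nerve sheath fibroblasts, at 0.39. Without the region highest in Pmp22 (n = 17) these were 0.62, 0.72, 0.63 and 0.16. The regions share animals, slides and a moving background, and the values are a description.

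**Figure D3:**
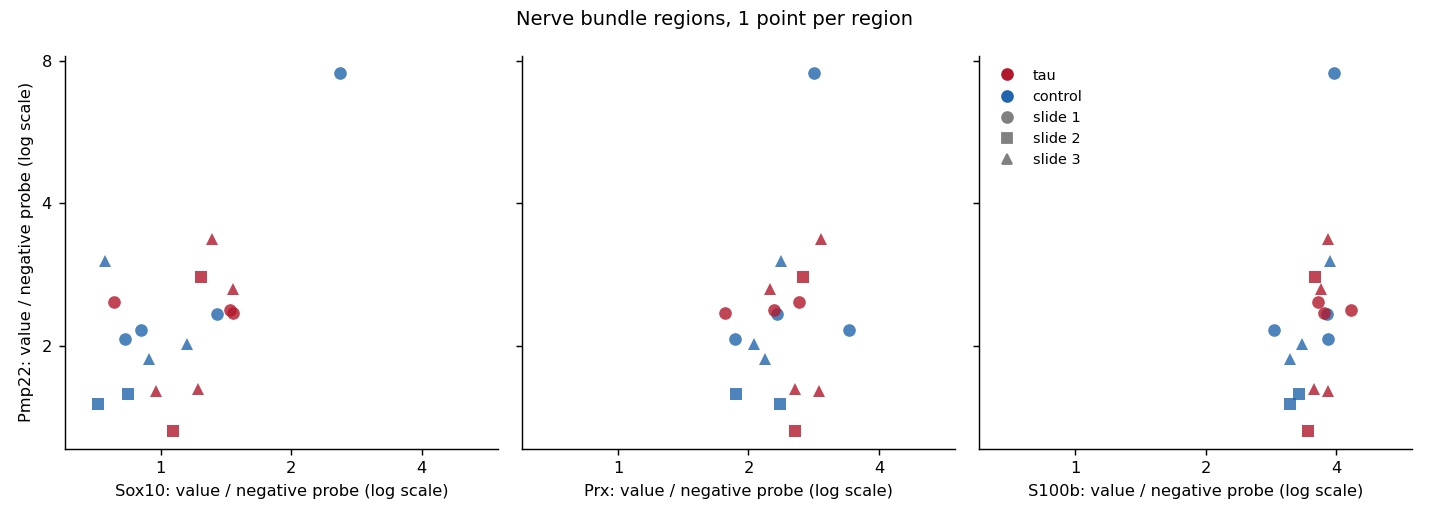
Pmp22 (vertical axis) against Sox10, Prx and S100b (horizontal axes) in the 18 nerve bundle regions, all as multiples of the negative probe on log scales, tau red and control blue, slides as marker shapes. Pmp22 spans 1.32 to 7.53 times background, while Prx (1.76 to 3.42) and S100b (2.88 to 4.33) occupy a narrower range at any Pmp22 level.

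The members were also set beside the label of the nerve bundles. Pmp22 was at least 2 times the negative probe in 12 of the 18 nerve bundle regions and below that in 6. S100b reached this limit in 18 of 18, Prx in 15 of 18 and Sox10 in 1 of 18. The limit is not particular to nerve bundles. The highest Pmp22 multiple was 2.65 in normal fibres, 3.81 in surrounding artery and 3.22 in central nuclei, beside 7.53 in nerve bundles. The multiple also depends on the negative probe, which differed between slides. Muscle fibre transcripts remained high there, and of the 12 listed fibre genes 2 lay above 0 in nerve bundle minus the other types (median -0.035), against 46.1% of all genes tested, with none called. Acta1, the skeletal actin gene, had nerve bundle animal means between 10614 and 53748 and a mean within-animal difference of -0.0032 ± 0.22 (SD, n = 12), and that of Ckm, the muscle creatine kinase gene, was -0.023 ± 0.17. Each region is a bulk sample, in which fewer cells of a type and less RNA per cell cannot be told apart. The part of fibre RNA in the nerve bundle values was not tested.

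Prx did not set nerve bundles apart. Its nerve bundle animal means had a lowest, median and highest value of 45.8, 87.9 and 127, against 49.3, 82.2 and 123 in normal fibres, 44.6, 80.4 and 111 in surrounding artery (n = 12 each) and 58.3, 91.7 and 109 in central nuclei (n = 11). The 4 ranges lie almost on top of each other, and no neighbouring levels differ beyond their spread. The difference between nerve bundle and the other types was 0.011 ± 0.065 (SE; above 0 in 7 of 12, adjusted p = 0.983). Against normal fibres it was -0.014 ± 0.076, against surrounding artery 0.081 ± 0.073 and against central nuclei -0.011 ± 0.071. As multiples of the negative probe, Prx averaged 2.41 ± 0.357 in nerve bundle, 2.32 ± 0.203 in normal fibres, 2.27 ± 0.220 in surrounding artery and 2.36 ± 0.242 in central nuclei (SD).

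S100b gave the same picture at a higher multiple of background. Its nerve bundle means had a lowest, median and highest value of 65.0, 134 and 171, against 78.2, 127 and 182 in normal fibres, 52.0, 118 and 201 in surrounding artery and 64.2, 126 and 177 in central nuclei. The types overlap over nearly their whole range. The nerve bundle difference from the other types was 0.0091 ± 0.053 (above 0 in 6 of 12, adjusted p = 0.983). Against normal fibres it was -0.046 ± 0.087, against surrounding artery 0.064 ± 0.070 and against central nuclei -0.0074 ± 0.062. S100b averaged 3.54 ± 0.277 times the negative probe in nerve bundle and 3.49 ± 0.304 times in normal fibres.

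Sox10, near background everywhere, had nerve bundle means with a lowest, median and highest value of 23.3, 34.2 and 54.5, against 22.8, 37.0 and 53.0 in normal fibres, 14.8, 34.7 and 46.0 in surrounding artery and 28.6, 36.4 and 49.0 in central nuclei. As multiples of the negative probe these are averages of 1.09 ± 0.267, 1.01 ± 0.191, 1.04 ± 0.261 and 1.05 ± 0.294. Its nerve bundle difference from the other types was 0.034 ± 0.10 (above 0 in 5 of 12, adjusted p = 0.970). The region with most Pmp22, in C2, was also that with the highest Sox10 multiple, at 2.59 times the negative probe with 21 counts. The other nerve bundle regions of all animals ran between 0.716 and 1.47 times. As deposited, Sox10 in that C2 region was 50.3 beside a negative probe of 19.4, and a nerve bundle region of T20 reached 58.5. Surrounding artery minus normal fibres was -0.11 ± 0.081 for S100b, -0.095 ± 0.059 for Prx and -0.048 ± 0.097 for Sox10. Central nuclei minus normal fibres was -0.071 ± 0.090, 0.031 ± 0.061 and 0.028 ± 0.11 for the same genes, and surrounding artery minus central nuclei was -0.069 ± 0.086, -0.11 ± 0.064 and -0.0073 ± 0.092. Nerve bundle Sox10 differed by 0.016 ± 0.094 from normal fibres, 0.064 ± 0.13 from surrounding artery and -0.045 ± 0.12 from central nuclei. None of these passed.

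**Figure D4:**
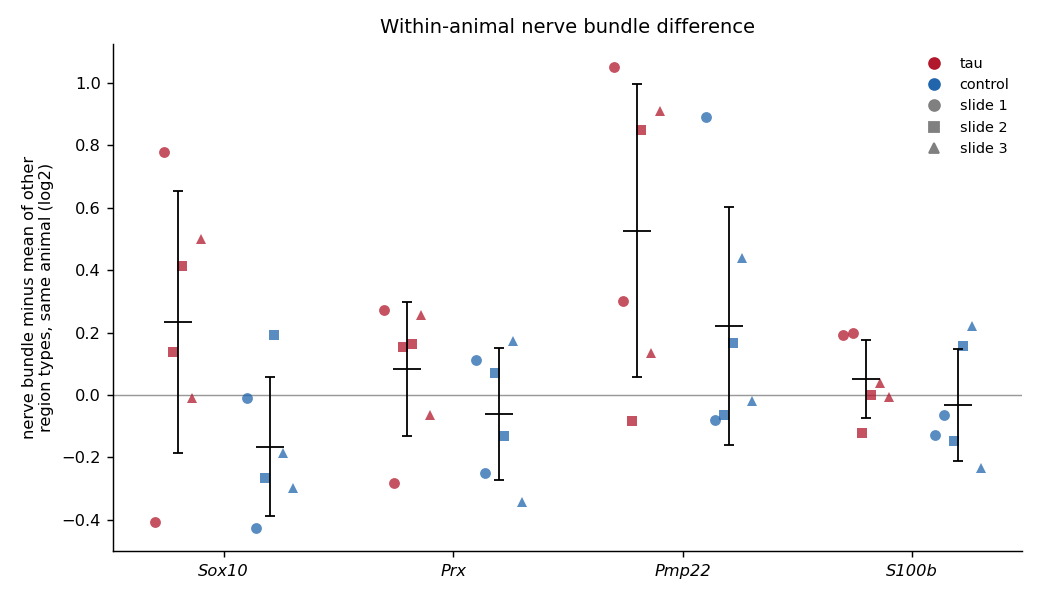
Nerve bundle minus the mean of the other region types in the same animal (vertical axis, log2), for the 4 genes, tau (red, left) and control (blue, right), 1 point per animal with slides as marker shapes; black lines and bars are the mean and SD. Prx and S100b lie close to 0, and Pmp22 spreads upward in some animals of both treatments.

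Likeness across region types was measured as Pearson's r over the 47 animal-by-type means after removing each animal's average, which leaves differences between types within an animal. Of the tested genes reported here, those most like Pmp22 were Apod (r = 0.76), Gprc5b (0.73) and Ache, the gene of acetylcholinesterase (0.73). Those most like Prx were the olfactory receptor genes Olfr48 (0.77), Olfr982 (0.74) and Olfr317 (0.73). Those most like S100b were Mybph (0.78), a gene of the myosin-binding protein H of muscle, Olfr905 (0.74) and Slc23a1 (0.74). For Sox10 they were Ctsf (0.72), Rnf141 (0.64) and Tecpr1 (0.61). With the negative probe itself r was 0.68 for S100b, 0.63 for Prx, 0.046 for Sox10 and -0.18 for Pmp22. Between members r was 0.31 for Prx and S100b and 0.21 for Pmp22 and Sox10, and lay between -0.024 and 0.062 in the other pairs. The points share animals and libraries, and the values are a description.

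Other genes of the sheath were few in the table. Of 14 listed myelin sheath genes besides the members, 4 were in the table and 3 were tested, and in nerve bundle minus the other types 3 of 3 lay above 0 with a median of 0.098, where 46.1% of all genes tested lay above 0 with a median of -0.0076. None passed the test. They were 0.12 ± 0.10 for Cd9, a tetraspanin gene, 0.098 ± 0.066 for Plekhb1 and 0.027 ± 0.11 for Pllp, which encodes plasmolipin, a membrane protein of myelin. Of the myelin lipid genes 4 of 8 lay above 0 (median 0.022), of the Schwann cell regulators 3 of 10 (median -0.049), of further Schwann cell identity genes 3 of 4 (median 0.087) and of the repair Schwann cell genes, which injured nerve induces, 2 of 6 (median -0.060). Of the 4 endoneurial fibroblast genes 4 lay above 0, led by Apod at 0.97 ± 0.21 (10 of 12 animals, unadjusted p 0.00022, adjusted p = 0.925). Neither axon transcripts (1 of 3, median -0.0045) nor the axon-to-glia signalling genes (4 of 9, median -0.043) leaned to nerve bundle. Mbp, Mag, Egr2, Erbb3, Ngfr and Gfap were on these lists but are not described singly here. Mbp and Mag were not among the 3 sheath genes tested.

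Markers of the other cell types that an outlined nerve bundle can hold gave these values for the same difference. The smooth muscle list had 6 of 7 genes above 0 (median 0.10), the fibro-adipogenic list 6 of 9 (median 0.085), the endothelial list 6 of 10 (median 0.021), the adipocyte list 3 of 4 (median 0.032), the macrophage list 1 of 4 (median -0.12), the satellite cell list 2 of 3 (median 0.038), the melanocyte list 1 of 2 (median 0.097), and the muscle fibre list 2 of 12 (median -0.035). Of the node and paranode list 2 of 2 lay above 0 (median 0.10), and of the perineurial list no gene was tested. In all of these lists no gene was called. Acta2, the smooth muscle actin gene, differed by 0.38 ± 0.92 (SD, n = 12 animals), and its nerve bundle means had a median of 54.5 in tau animals and 132 in controls. Pecam1, of the endothelial list, differed by -0.018 ± 0.25 and Pdgfra, of the fibro-adipogenic list, by 0.048 ± 0.42 (SD, n = 12 animals). Against normal fibres the same 2 genes differed by -0.082 ± 0.29 and -0.030 ± 0.50. The part of these cells in the Pmp22 difference was not tested.

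The comparison of tau with control asks whether the Schwann cell genes differ in the muscle of animals labelled tauopathy. No member passed the test in any region type, though S100b and Prx passed in some under other settings. Over the mean of nerve bundle, normal fibres and surrounding artery, with slide as a covariate, S100b averaged 7.08 ± 0.36 log2 units in tau animals and 6.70 ± 0.45 in controls (SD, n = 6 each), a difference of 0.39 ± 0.099 (SE; adjusted p = 0.0715). Prx averaged 6.51 ± 0.39 in tau animals and 6.12 ± 0.42 in controls, a difference of 0.39 ± 0.10 (adjusted p = 0.0727). Sox10 differed by 0.34 ± 0.11 (adjusted p = 0.135) and Pmp22 by 0.14 ± 0.094 (adjusted p = 0.385). All of these differences were positive on 3 of 3 slides. Of all genes tested, 0% were called, 72.3% lay above 0, the median difference was 0.088, and 2021 genes had an unadjusted p under 0.05.

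Background and depth moved the same way. Total counts averaged 20.55 ± 0.74 log2 units in tau animals and 19.60 ± 0.97 in controls over these 3 types (SD, n = 6 each), a difference of 0.95, or 0.93, 0.55 and 1.37 on slides 1, 2 and 3, with no overlap between the groups within any slide. Ckm averaged 14.12 ± 1.08 log2 units in tau animals and 14.64 ± 1.20 in controls, a difference of -0.52. The part of depth and of fibre RNA in the tau differences was not tested. The negative probe averaged 5.20 ± 0.39 log2 units in tau animals and 4.97 ± 0.45 in controls over these 3 types (SD, n = 6 each), a difference of 0.23. When every gene was divided by the region's negative probe, the difference was 0.15 ± 0.092 for S100b, 0.16 ± 0.090 for Prx, 0.11 ± 0.12 for Sox10 and -0.089 ± 0.13 for Pmp22, whose sign turned, and the median over all genes tested shifted to -0.15. Relative to the median of all genes tested, S100b stood at 0.30 as deposited and 0.30 after division, Prx at 0.30 and 0.31, Sox10 at 0.25 and 0.26, and Pmp22 at 0.055 and 0.056. Division by the negative probe shifts every gene of a region by the same log2 amount. These pairs are therefore nearly equal by construction, and they cannot show whether background enters the differences. With the negative probe as a covariate the differences were 0.14 for S100b, 0.16 for Prx, 0.22 for Sox10 and 0.18 for Pmp22. The part of the background in the tau differences was not tested further. S100b and Prx passed at an adjusted p of 0.0279 and 0.0295 when fewer, higher genes were tested (2 times the negative probe in 50% of regions), and both passed without C3, T30 or T7, with adjusted p between 0.0281 and 0.0480. With the same higher genes S100b passed in surrounding artery (adjusted p 0.0489) and central nuclei (0.0371) and Prx in central nuclei (0.0358), and S100b passed in central nuclei with quantile normalisation (0.54, adjusted p 0.0397).

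**Figure D5:**
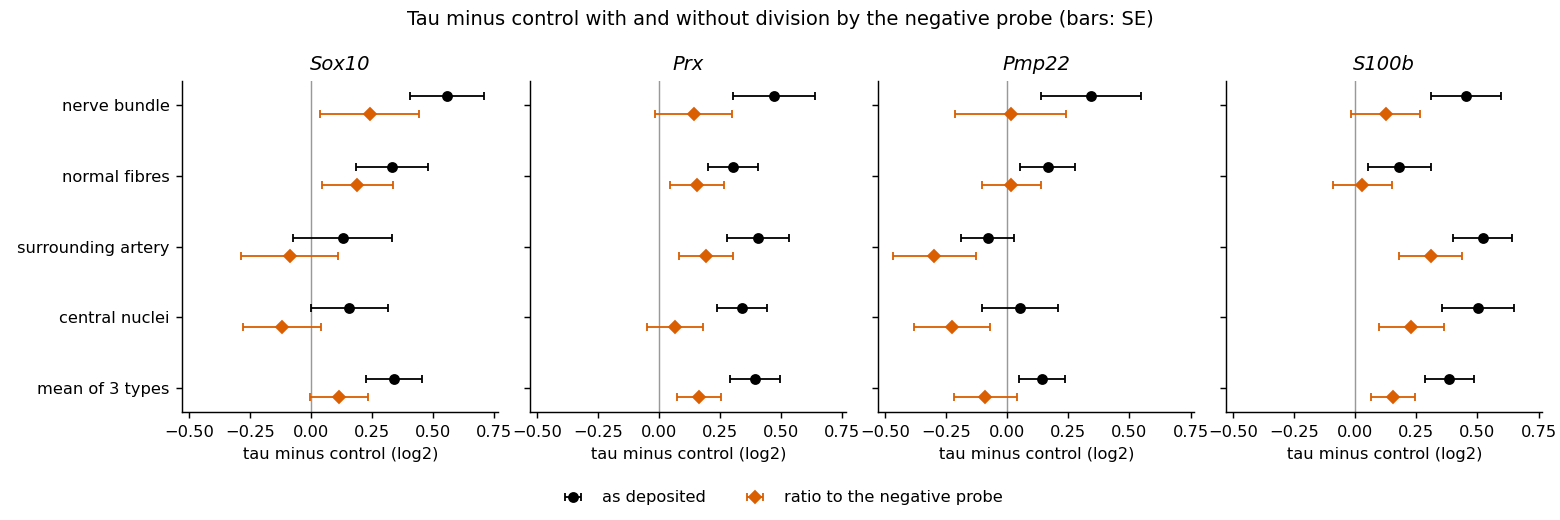
Tau minus control in each region type and over the mean of 3 types (horizontal axis, log2, bars are the SE of the fit), as deposited (black) and after division by the negative probe (orange). Prx and S100b lie to the right of 0 in every row as deposited and closer to it after division, and Pmp22 in surrounding artery and central nuclei lies near or left of 0.

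In the nerve bundle alone, S100b had a lowest, median and highest value of 96.7, 143 and 171 in tau animals, against 65.0, 99.1 and 147 in controls (n = 6 each). Prx had 48.2, 102 and 127 in tau animals, against 45.8, 65.3 and 111 in controls. Tau animals were higher at the median for both, and the groups overlap. The differences were 0.45 ± 0.14 for S100b (adjusted p = 0.328) and 0.47 ± 0.17 for Prx (adjusted p = 0.360), where 0% of genes were called, 69.9% lay above 0 and 1277 had an unadjusted p under 0.05. Sox10 had 28.3, 47.3 and 54.5 in tau animals, against 23.3, 29.5 and 36.7 in controls, a difference of 0.56 ± 0.15 (adjusted p = 0.303). Pmp22 had 56.7, 77.6 and 123 in tau animals, against 47.5, 69.8 and 78.7 in controls, a difference of 0.34 ± 0.20 (adjusted p = 0.458). In these bundles the negative probe differed by 0.33, and after division by it the differences were 0.12 for S100b, 0.14 for Prx, 0.24 for Sox10 and 0.015 for Pmp22. Without T30, whose Prx nerve bundle mean was 48.2 beside 93.8 or more in the other tau animals, the Prx difference was 0.60 ± 0.15 (adjusted p = 0.328).

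In surrounding artery, S100b had a lowest, median and highest value of 90.6, 147 and 201 in tau animals, against 52.0, 93.3 and 170 in controls, a difference of 0.52 ± 0.12 (adjusted p = 0.124). Prx differed there by 0.40 ± 0.12 (adjusted p = 0.201), Sox10 by 0.13 ± 0.20 and Pmp22 by -0.080 ± 0.11, the last negative on 3 of 3 slides. In central nuclei the 5 tau animals had S100b at 117, 149, 151, 156 and 177, against a lowest, median and highest value of 64.2, 107 and 155 in 6 controls, a difference of 0.50 ± 0.15 (adjusted p = 0.0890). Prx was 78.1, 93.2, 106, 107 and 109 in those tau animals, against 58.3, 68.3 and 102 in controls, a difference of 0.34 ± 0.10 (adjusted p = 0.0957). Pmp22 differed there by 0.053 ± 0.15 and Sox10 by 0.16 ± 0.16. In normal fibres the differences were 0.18 ± 0.13 for S100b (adjusted p = 0.561), 0.30 ± 0.10 for Prx (adjusted p = 0.228), 0.17 ± 0.11 for Pmp22 and 0.33 ± 0.15 for Sox10. The share called was 0% in each of these 3 types, with 1243, 2098 and 1385 genes at an unadjusted p under 0.05 in artery, central nuclei and normal fibres. A difference above 0 was found in 65.3%, 65.7% and 65.5% of all genes tested in the same 3 types.

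Whether nerve bundles departed from the other types more in tau than in control animals was tested as an interaction, in which 0% of genes were called, 61.8% lay above 0 and 495 had an unadjusted p under 0.05. The nerve bundle difference of Pmp22 averaged 0.53 ± 0.47 in tau animals and 0.22 ± 0.38 in controls (SD, n = 6 each), which differ by 0.30 ± 0.21 (SE; adjusted p = 0.840). That of Sox10 averaged 0.23 ± 0.42 in tau animals and -0.17 ± 0.22 in controls, which differ by 0.40 ± 0.20 (adjusted p = 0.839). For Prx the interaction was 0.14 ± 0.14 and for S100b 0.082 ± 0.11. The SD between animals was at least as large as these differences, except for Sox10 in controls, at 0.22 beside 0.40.

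S100b and Prx differed between slides as deposited and much less so over background. Over the regions of slides 1, 2 and 3, S100b averaged 91.1 (range 50.3 to 141), 157 (122 to 201) and 123 (49.4 to 172), and Prx 61.8 ± 17.5, 105 ± 12.5 and 84.0 ± 18.3 (SD). As multiples of the negative probe the same slides averaged 3.51, 3.39 and 3.50 for S100b and 2.41, 2.26 and 2.40 for Prx. Pmp22 averaged 53.4 ± 25.5, 70.7 ± 13.2 and 61.8 ± 17.5, and 2.18, 1.54 and 1.81 times the negative probe. Sox10 averaged 31.3, 41.1 and 38.4, and 1.24, 0.888 and 1.10 times it. A normalised value also rests on unlike numbers of counts: the median count behind S100b was 32 on slide 1, 409 on slide 2 and 134 on slide 3, and that behind Sox10 was 12, 110 and 40. Between regions of one type in one animal the SD of the log2 value was 0.28 for Prx, 0.42 for Pmp22, 0.27 for S100b and 0.32 for Sox10 (30 sets of 2 or more regions). Between the animal means of one slide and treatment it was 0.23 for Prx, 0.32 for Pmp22, 0.25 for S100b and 0.32 for Sox10. The spread between single regions of an animal was thus at least as large as that between animal means for Prx, Pmp22 and S100b, and about equal to it for Sox10. Averaging over an animal's regions lowers the spread of its mean, so these SDs are not like for like.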

How the data were processed

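The authors deposited one table whose unit is a linear signal: per the file headers, probe counts scaled to each region's upper quartile (Q3), neither log-transformed nor corrected for background. The genome build is mm10 per the submitters' processing notes, and no source used here names the counting software. At least 99.98% of a region's low values fell on whole multiples of a common step (tolerance 0.02 of it), which gave each region's total count and was used in no test.

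Genes at least 1.5 times the negative probe in at least 10% of regions were tested (10188, leaving out 654). The log2 of each value plus 1 was averaged over an animal's regions of one type, with the animal named in the labels as replicate. Region types were compared within animals (12, or 11 where central nuclei enter), a pairing that comes from the animal in the labels. Tau was compared with control with slide, read from the file header, as a covariate. The fits used limma 3.58.1 (R 4.3.3; empirical Bayes with trend, Benjamini-Hochberg adjustment, threshold 0.05) and were tested on simulated data. The R package for reading was data.table, version 1.17.8. Figures were drawn with matplotlib 3.10.9.

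The 4 members, the lists and the tests were chosen with earlier results of these data known. The genes named besides are up to 4 tested genes a list with the smallest p in nerve bundle minus the other types, the 3 most alike to each member among those reported, and Acta1, Ckm, Pecam1, Acta2 and Pdgfra; Dcn was named after its values were seen, and Apod stands beside Pmp22 in single regions for the same reason. Some results on other genes are not reported here. Alternatives were other pseudocounts, filters and scalings, subtraction of or adjustment for the negative probe, other covariates, and leaving out slides or animals. The labels do not say how regions were outlined. Counting error, and how the negative probe moves with depth and slide, bear on the precision of low genes.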

Additional observations from a re-analysis of the deposited data

Results flagged for a closer look

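In 2 of 32 groups of animals tested (a member in a region type of one treatment), 1 animal lay far from the others, and chance flags about 1 in 20 groups. Both are the tau animal T30. Its Prx mean in nerve bundle was 5.621 log2 units, below the other 5 tau animals at 6.566 to 7.002. Its Sox10 mean in surrounding artery was 3.985, below the other 5 at 5.159 to 5.554.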

How the results depend on the processing

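The 4 genes in 13 comparisons gave 1376 values under the alternatives, of which 1252 kept their direction and side of the threshold, 109 changed sign with none of these past the threshold, and 15 passed where the reported value had not. Pmp22 in nerve bundle minus the other types stayed positive under all, between 0.29 and 1.06. The cause of the changes was not tested.

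The pairing by animal is a replicate block in the main fit of region types. With no replicate block the gene counts fell to 0 for nerve bundle minus normal fibres and to 0 for surrounding artery minus normal fibres, and Pmp22 in nerve bundle minus the other types kept its difference of 0.37. It changed no call of a member. The planned count test on recovered reads was not run.

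Genes called in nerve bundle minus the other types numbered 1 with the negative probe subtracted. In nerve bundle minus normal fibres they were 2 with quantile normalisation, slide as covariate, the negative probe as covariate or the ratio to it, 0 with it subtracted or without slide 1 or 3, and 0 to 3 without 1 animal. In surrounding artery minus central nuclei they were 1 without slide 2 or with slide as covariate. In surrounding artery minus normal fibres they were 121 with the stricter filter, 22 with quantile normalisation, 270 as a ratio, 11 with slide as covariate, 10 and 5 without slides 2 and 3, 1 with the first region only, 0 with the negative probe subtracted or as covariate or without slide 1, and 4 to 172 without 1 animal.

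In tau minus control, genes called in central nuclei were 448 with the stricter filter, 235 with quantile normalisation, 175 with the negative probe subtracted, 6 without slide 2, 97 with the first region only, 1 with slide and labelled sex, 1393 as a ratio, and 0 to 373 without 1 animal. Over the mean of 3 types they were 270 with the stricter filter, 1 with quantile normalisation and 0 to 372 without 1 animal. In nerve bundle they were 1 with quantile normalisation, 1 without slide 2 and 0 to 1 without 1 animal. In normal fibres they were 3 without slide 2, 51 with slide and labelled sex and 0 to 23 without 1 animal. In surrounding artery they were 92 with the stricter filter.

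With the stricter filter S100b (0.39) and Prx (0.39) passed over the mean of 3 types, S100b in surrounding artery (0.52) and central nuclei (0.50), and Prx in central nuclei (0.34). S100b also passed in central nuclei with quantile normalisation (0.54). Without 1 animal, the differences over the mean of 3 types ran between 0.32 and 0.44 for S100b and 0.32 and 0.47 for Prx. Those of Sox10 ran between 0.29 and 0.44, and Sox10 passed without T30. S100b ran between 0.46 and 0.61 in surrounding artery and 0.35 and 0.58 in central nuclei. Prx ran between 0.28 and 0.39 in central nuclei.

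With quantile normalisation the sign changed in nerve bundle minus the other types (S100b -0.021), nerve bundle minus central nuclei (Prx 0.0016, Sox10 0.033), central nuclei minus normal fibres (Prx -0.0047, Sox10 -0.021), surrounding artery minus central nuclei (Sox10 0.0077), and tau minus control in central nuclei (Pmp22 -0.0094, Sox10 -0.018) and artery (Sox10 -0.0085). With the negative probe subtracted it changed in nerve bundle minus normal fibres (Prx 0.030), nerve bundle minus central nuclei (S100b 0.025, Prx 0.030, Sox10 0.33), surrounding artery minus normal fibres (Sox10 0.38) and minus central nuclei (Sox10 0.33), and tau minus control in central nuclei (Pmp22 -0.21, Sox10 -0.26) and artery (Sox10 -0.28).

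Without slide 1 it changed in nerve bundle minus the other types (S100b -0.011), minus surrounding artery (S100b -0.042) and minus central nuclei (S100b 0.033, Prx 0.017, Sox10 0.084), in surrounding artery minus normal fibres (S100b 0.017, Sox10 0.0093) and minus central nuclei (S100b 0.075, Sox10 0.041), in central nuclei minus normal fibres (Prx -0.023, Sox10 -0.032) and in the interaction (S100b -0.022). Without slide 2 it changed in nerve bundle minus the other types (Prx -0.015, Sox10 -0.0073) and minus normal fibres (Sox10 -0.015), and in tau minus control in artery (Sox10 -0.0089). Without slide 3 it changed in nerve bundle minus central nuclei (Prx 0.0082) and tau minus control in central nuclei (Pmp22 -0.10). With the first region only it changed in nerve bundle minus the other types (S100b -0.020, Prx -0.037, Sox10 -0.10), minus surrounding artery (Prx -0.0045, Sox10 -0.059) and minus normal fibres (Sox10 -0.078).

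With the negative probe as covariate it changed in nerve bundle minus normal fibres (S100b 0.047, Prx 0.026) and minus central nuclei (S100b 0.043, Prx 0.058), surrounding artery minus normal fibres (S100b 0.0075) and minus central nuclei (S100b 0.0052, Pmp22 -0.034), tau minus control in normal fibres (S100b -0.066), artery (Pmp22 0.070, Sox10 -0.079) and central nuclei (S100b -0.060, Pmp22 -0.19, Sox10 -0.010), and the interaction (S100b -0.052). As a ratio to the negative probe, an alternative chosen after seeing the data, it changed in nerve bundle minus normal fibres (S100b 0.019, Prx 0.051) and minus central nuclei (S100b 0.052, Prx 0.048, Sox10 0.012), surrounding artery minus normal fibres (Sox10 0.016) and minus central nuclei (Sox10 0.050), tau minus control in central nuclei (Pmp22 -0.22, Sox10 -0.12), artery (Sox10 -0.088) and over the mean of 3 types (Pmp22 -0.089), and the interaction (S100b -0.058).

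Without 1 animal in turn, the sign also changed in nerve bundle minus the other types (S100b -0.010 to 0.031, Prx -0.013 to 0.043, Sox10 -0.033 to 0.076), minus normal fibres (S100b -0.078 to 0.016, Prx -0.047 to 0.028, Sox10 -0.023 to 0.064), minus surrounding artery (Sox10 -0.038 to 0.11) and minus central nuclei (S100b -0.038 to 0.021, Prx -0.039 to 0.022, Sox10 -0.12 to 0.050). The same held for central nuclei minus normal fibres (S100b -0.11 to 0.026, Sox10 -0.071 to 0.068), surrounding artery minus normal fibres (Sox10 -0.087 to 0.021) and minus central nuclei (Pmp22 -0.035 to 0.11, Sox10 -0.039 to 0.060), and tau minus control in central nuclei (Pmp22 -0.022 to 0.18). Sox10 counts in a nerve bundle region ran from 3 to 178, and the part of depth in its changes was not tested.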
